A study of Mus musculus with 18 samples.

Results

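The comparison described here set the medial entorhinal cortex of mice about 22 months old against that of mice about 12 months old, in RNA from sorted neuronal nuclei. It used 12 of the 18 libraries of the series, 6 from aged mice (A15, A17, A18, A19, A20 and A24) and 6 from middle-aged (MA) mice, whose label reads Mature (MA1, MA3, MA5, MA6, MA8 and MA10), chosen by group alone. These are the 2 groups that were both obtained from the Jackson Laboratory. The remaining 6 libraries, from mice about 3 months old of another supplier, entered only the estimate of the spread between libraries and the choice of genes to test. Of 27782 genes listed, 17985 were tested, namely those whose normalized values averaged 25 or more over the 18 libraries.

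The animals were C57Bl/6 mice without a transgene, 3 females and 3 males in each group. MA mice arrived young and aged in house, whereas aged mice arrived already old. Every animal had surgery for the recordings, with anaesthesia, pain relief and an antibiotic, was kept on water restriction, was trained on a Split Maze task in virtual reality and was recorded with neural probes, and the tissue was frozen shortly after the last recording. The dissection could hold some lateral entorhinal cortex and parasubiculum. Nuclei positive for NeuN, the protein product of Rbfox3 and a marker of most neurons, were sorted from 1 hemisphere of each mouse. The 6 MA mice and the 3 aged females belonged to 1 recording cohort and the 3 aged males to another. The age difference in males therefore also separates cohorts and cannot be told apart from them, while the age difference in females lies within 1 cohort.

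The entorhinal cortex is the main gateway between the neocortex and the hippocampus. Its superficial stellate and pyramidal neurons send position-related signals to the hippocampal formation, and local GABAergic interneurons, among them those that express parvalbumin, somatostatin or vasoactive intestinal peptide, shape when these neurons fire. In the ageing brain, genes of the interferon response, antigen presentation, glial reactivity and synaptic inhibition are often examined, and they are covered among 56 gene lists.

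Per library, between 21045 and 24102 genes had a value above 0, the largest sum of values was 1.12 times the smallest, and the 100 highest genes held between 11.9% and 15.7% of the sum. The values are not read counts and the depth behind them is unknown, so no counting error can be given. Correlations of log2 values across genes had a median of 0.901 within the MA group, 0.884 within the aged group and 0.895 between them. A pair of libraries stood apart. MA5 carried genes of cerebellar granule neurons, with Gabra6 at 20442 against 5.19 to 204 in the other MA libraries, and A15 had the lowest mean correlation with its own group, 0.850. Every named difference was recomputed without these libraries.

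No gene differed between aged and MA mice after adjustment over all 17985 genes. In limma's moderated test with sex in the fit, 0 genes (0%) had an adjusted p under 0.05, and the smallest adjusted p was 0.9995. Without adjustment 381 genes (2.12%) had a limma p under 0.05, 206 of them (1.15%) with higher and 175 (0.973%) with lower levels in aged mice. The exact two-sided permutation test of the group labels gave an unadjusted p under 0.05 for 477 genes (2.65%) and an adjusted p under 0.05 for 0 genes. Its smallest attainable p is 0.00216. Over 17985 genes an adjusted p under 0.05 would need many genes at that limit at once. The 0 of the permutation test was therefore nearly fixed in advance and adds little to that of limma. The unadjusted shares, 2.12% and 2.65%, are below the 0.05 that random labels would give on average. The median log2 difference over all genes was -0.01. The values that follow describe individual genes and gene groups, and none of them passed the test.

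The data did bound the size of the differences. The 95% interval of the log2 difference had a median half-width of 0.64, and for 10478 genes (58.3%) the whole interval lay between -1 and 1, that is, within a doubling or halving. For the others the interval reached beyond that range on at least 1 side. Aged libraries were also more spread out. The SD between libraries of 1 sex had a median over genes of 0.51 log2 units in aged and 0.46 in MA mice, and was higher in aged mice for 62.4% of genes (60.6% without A15 and MA5).

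The females and the males, which share no library, gave little common ground. In females 257 genes (1.43%) and in males 360 genes (2%) had a limma p under 0.05 without adjustment, with 0 genes after adjustment in either sex. Of these, 10 genes were on both lists in the same direction, 3.89% of the female list and 2.78% of the male list, and 3 more in opposite directions. Across all genes the female and male differences had a correlation of -0.21, and 47.2% had the same sign. These figures are across genes, which are not independent replicates. The 10 genes were Vip, Mtpn and RP24-359F24.1, higher in aged mice of both sexes, and Sipa1l2, Mpnd, Aqp4, Mitf, Prom1, Slirp and Tstd1, lower in both. They were picked for meeting both thresholds, so their values here are a description.

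The 6 aged and the 6 MA libraries did not overlap at all in 17 genes, 0.0945% of those tested. In 8 of them (0.0445%) every aged library was above every MA library, and in 9 (0.05%) every aged library was below. All have the smallest exact permutation p the design allows, 0.00216, and an adjusted p that is not under 0.05, which this test could hardly reach. Random group labels would separate a gene with that same probability of 0.00216. The share of 0.0945% is below the one random labels give on average. Under quantile normalization 8 genes were separate.

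Sipa1l2 had the smallest limma p of the 17. It encodes a GTPase-activating protein for the small GTPase Rap and lies at chr8:125418068-125569863 (GRCm38.p6, RefSeq). Its normalized values were 768 at the lowest, 1003 at the median and 1505 at the highest in MA libraries, and 278, 612 and 703 in aged libraries. Triples of values for a group are in this order from here on. The groups were separate, with A19 far below the other aged libraries. The log2 difference was -0.92 ± 0.25 (SE), the limma p 0.00152 before adjustment, and the difference was -0.89 in females and -0.95 in males.

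Among the other genes below the MA range, Dxo encodes an enzyme that removes faulty caps from messenger RNA. Its values were 421, 477 and 555 in MA and 275, 326 and 388 in aged libraries, a log2 difference of -0.56 ± 0.17. Exosc8, a subunit of the RNA exosome that degrades and trims RNA, lay between 814 and 916 (median 853) in MA and between 477 and 804 (median 645) in aged libraries. Its gap was narrow, with A19 at 804 just under the lowest MA library, and the log2 difference was -0.44 ± 0.17. Otud5, an X-linked deubiquitinating enzyme, had values of 943, 1103 and 1310 in MA and 515, 846 and 927 in aged libraries, with a log2 difference of -0.54 ± 0.19. In each of these genes the female and male differences had the same sign.

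Mpnd, which encodes a protein with an MPN domain, had little spread within groups. Its values were 1413 at the lowest, 1689 at the median and 1749 at the highest in MA libraries and 1024, 1162 and 1336 in aged libraries. The log2 difference was -0.46 ± 0.13, with -0.49 in females and -0.43 in males. Slc16a11, of the monocarboxylate transporter family, differed by -0.67 ± 0.24, the zinc finger gene Zfp72 by -0.79 ± 0.25, the carbonic anhydrase gene Car15 by -1.24 ± 0.46 (-0.56 in females and -1.91 in males) and the non-coding RNA 2700038G22Rik by -1.45 ± 0.65. The last of these rested on low values, between 47.3 and 108 in MA and between 5.95 and 45.2 in aged libraries.

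Among the genes with higher values in aged mice, Mthfs had the smallest limma p, 0.0033 before adjustment. It encodes methenyltetrahydrofolate synthetase, an enzyme of folate metabolism, at chr9:89211190-89240225. Values were 357, 515 and 558 in MA and 594, 851 and 962 in aged libraries. The lowest aged library, A17, was just above the highest MA library, and the log2 difference was 0.78 ± 0.23. Prps2, an enzyme that makes the ribose donor for nucleotide synthesis, had values of 149, 186 and 203 in MA and 224, 261 and 337 in aged libraries, a log2 difference of 0.61 ± 0.24.

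Nlgn1 encodes neuroligin 1, a postsynaptic adhesion molecule of excitatory synapses, and was by far the most abundant of the 17. It lay between 29271 and 43410 (median 37386) in MA and between 44689 and 99280 (median 47672) in aged libraries. The aged libraries other than A24 lay close together, between 44689 and 48640, and A24 was far above them. The log2 difference was 0.53 ± 0.26 with a 95% interval of -0.01 to 1.08, and a limma p of 0.0539. It was 0.25 in females, within 1 cohort, and 0.82 in males. Ubxn8, an endoplasmic reticulum protein with a UBX domain, differed by 0.40 ± 0.18 (0.56 in females and 0.24 in males) and 2210018M11Rik by 0.36 ± 0.18 (0.22 and 0.50). Nlrp5-ps, a transcribed pseudogene, differed by 1.75 ± 0.60 on values of 4.67 to 33.8 in MA and 35.3 to 66.7 in aged libraries. Its MA mean was 18.7, under the minimum set on the mean of all libraries. Nlrp5-ps passed that minimum through other libraries, so its higher level in aged mice is partly built in. Reads of Nlrp5-ps, of Zfp72 and of the interferon genes below can be shared with near-identical copies, so their split between copies is uncertain.

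**Figure D1:**
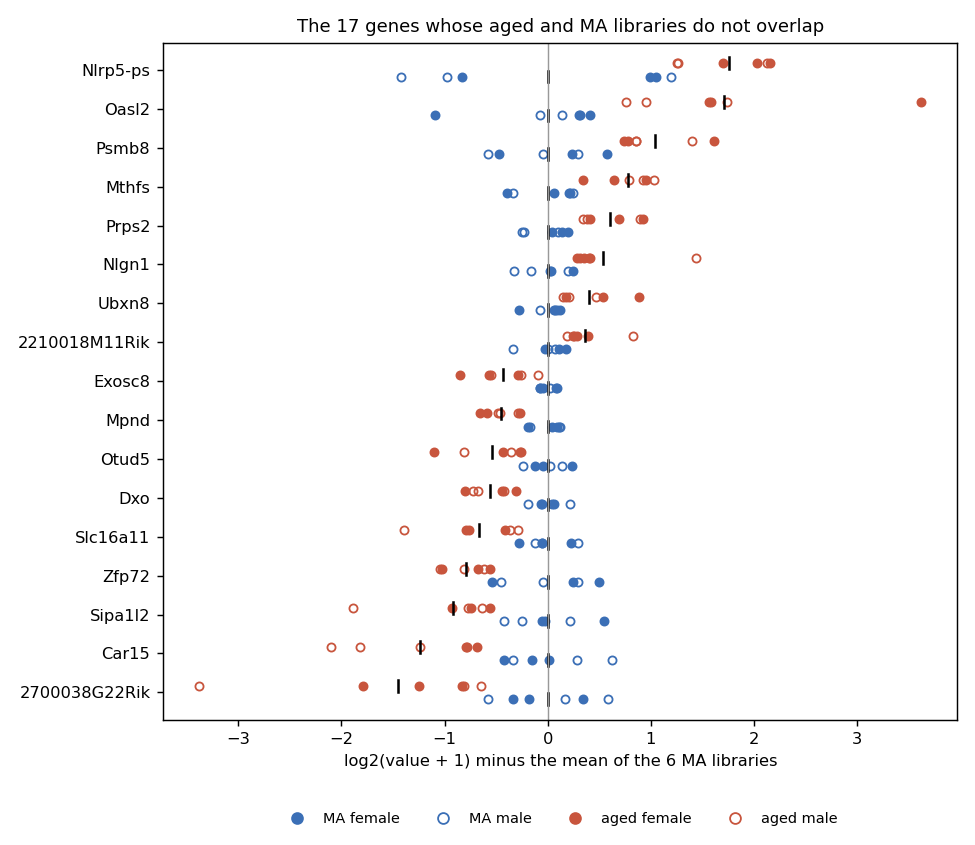
Each point is 1 library of the 17 genes without overlap, as log2(value + 1) minus the mean of the 6 MA libraries, with MA in blue, aged in red, females filled, males open and short black bars at the group means. The group means of Nlrp5-ps and Oasl2 differ most among the higher genes (1.75 and 1.71), and single libraries stand far out in Oasl2 (A18), Nlgn1 (A24), Sipa1l2 (A19) and 2700038G22Rik (A24). The MA mean of Nlrp5-ps, 18.7, is under the minimum for testing, so its higher level in aged mice is partly built in.

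The gene list with the most members of this kind was that of the interferon response and class I antigen presentation. Type I interferons bind a surface receptor and, through STAT and IRF transcription factors, switch on genes that detect or block viral RNA, such as the Ifit and Oas families, and genes that present peptides on class I molecules, such as B2m and the immunoproteasome subunit Psmb8. Of 35 genes listed, 26 passed the minimum mean value. Of these, 21 had higher and 5 had lower mean levels in aged mice, against 49.3% higher among all genes tested, and the median log2 difference was 0.31. In all, 4 members had a limma p under 0.05 without adjustment, all higher in aged mice, 15.4% of the 26 against 2.12% of all genes tested. Among them Oasl2 and Psmb8 had no overlap between groups, which held for 0.0945% of all genes. The minimum was set on the mean of all libraries, and 6 members, Ifit1, Psmb8, Usp18, Ifitm3, Irf7 and Mx2, had an MA mean under 25 and passed through other libraries, so their higher level in aged mice is partly built in. Of the 20 members with an MA mean of at least 25, 15 were higher (75%, against 48.9% of all such genes), the median was 0.28, and 2 had a limma p under 0.05 (10%, against 2.08%). No member had an adjusted p under 0.05.

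Oasl2, an interferon-induced relative of the oligoadenylate synthetases, lies at chr5:114896926-114912245. Its values were 15.9, 41.0 and 46.8 (lowest, median and highest) in MA libraries and 60.1, 106 and 442 in aged libraries. All aged libraries were above all MA libraries, and A18 at 442 was far above the rest. The log2 difference was 1.71 ± 0.51 with a 95% interval of 0.63 to 2.79, and it stayed between 1.35 and 1.85 when any 1 library was left out. It was 2.38 in females and 1.03 in males.

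Psmb8, at chr17:34198195-34201454, replaces a catalytic subunit of the standard proteasome in cells exposed to interferon. Values were 13.3, 21.8 and 30.7 in MA and 34.6, 37.5 and 64.2 in aged libraries. The groups were separate at low values, and the log2 difference was 1.04 ± 0.45. It was 0.94 in females and 1.14 in males.

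Ifit1 and Ifit2 encode proteins that recognise foreign RNA and limit its translation. Ifit1 had values of 2.61, 15.9 and 34.9 in MA and 20.8, 76.2 and 260 in aged libraries, a log2 difference of 2.12 ± 0.81. Its high values came from A17, A18 and A24, at 180, 260 and 122, and the other aged libraries were within the MA range. Ifit2 had values of 71.5, 92.9 and 108 in MA and 104, 148 and 219 in aged libraries, a log2 difference of 0.77 ± 0.31. Only A19, at 104, fell within the MA range. Both genes lie on chromosome 19.

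Most of this list's difference stood in 2 libraries. Taken over the 26 genes, the mean log2 level relative to the MA mean lay between -0.30 and 0.36 in MA libraries, and was 1.08 in A17 and 1.33 in A18, both females. The other 4 aged libraries had means of -0.06 (A15), 0.10 (A20), 0.23 (A19) and 0.29 (A24), all within the MA range. The 26 genes include the 6 members with an MA mean under 25, so the aged means are partly built in. In A17 and A18 the highest members were among those 6, Usp18 (4.67 and 4.65) and Ifit1 (3.52 and 4.05). Usp18, which encodes a brake on interferon signalling, was at 337 in A17 and 332 in A18 and between 5.46 and 83.7 in the other aged libraries, against 2.23 to 51.2 in MA libraries (chosen for mention after its values were seen).

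The list's median difference was 0.58 in females, within 1 cohort, and 0.12 in males, and it remained between 0.26 and 0.48 when 1 library was left out. Eif2ak2, the kinase PKR that stops translation when it binds double-stranded RNA and that is kept in the list of the integrated stress response, had its highest values in all 3 aged females, with A15 the highest. Its log2 difference was 0.85 ± 0.35 in both sexes together, 1.66 in females and 0.04 in males, with all 3 aged females (363 to 530) above all MA libraries (127 to 176.5) and the aged males between 126 and 269.5. The difference between the sexes had an unadjusted limma p of 0.0177 for Eif2ak2 and no adjusted p under 0.05.

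Microglia and vascular cells also carry interferon genes, so their markers were read beside the list. Over 10 microglial markers the mean log2 level was 0.35 in A17 and -0.05 in A18, inside the MA range of -1.22 to 0.79, and over 10 endothelial and mural markers it was -0.09 and 0.10, inside the MA range of -0.74 to 0.56. Among the 10 microglial markers tested, 5 had higher and 5 lower mean levels in aged mice. A17 had the highest microglial mean of the aged libraries. How far such cells entered the interferon values of A17 and A18 was not tested.

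**Figure D2:**
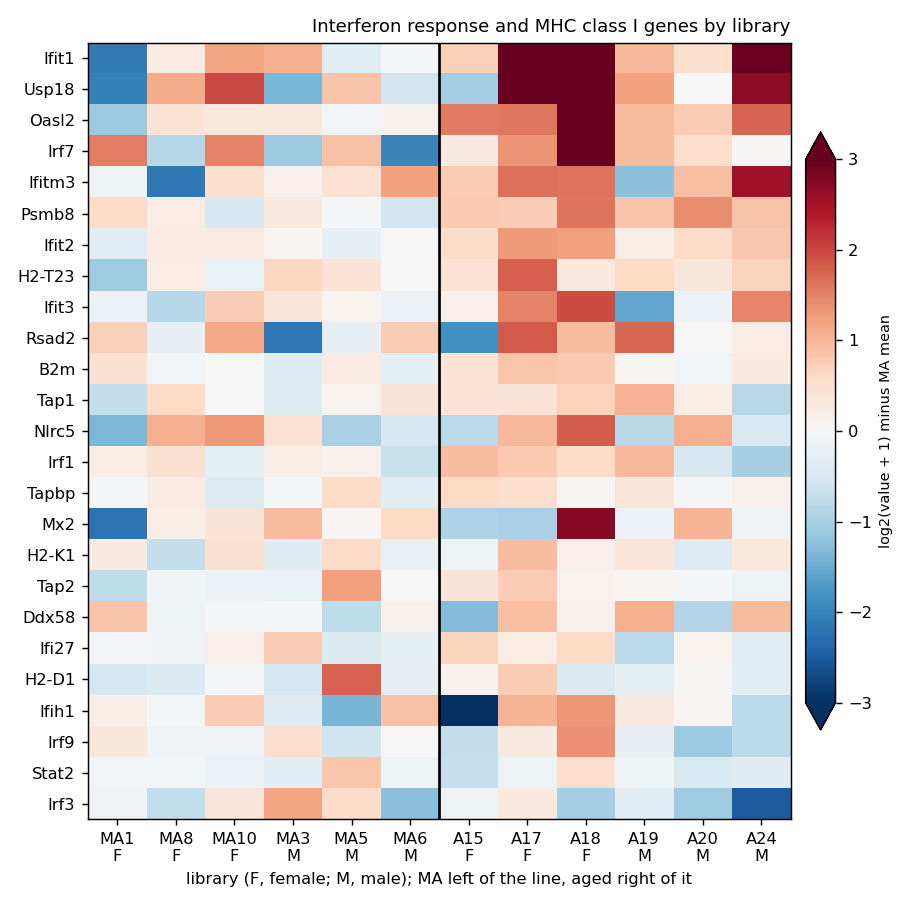
Rows are 25 of the 26 tested interferon and MHC class I genes ordered by their difference, columns the 12 libraries, and the colour is log2(value + 1) minus the MA mean of that gene, cut at -3 and 3. A17 and A18 are red over most rows, with list means of 1.08 and 1.33, while A15, A19, A20 and A24 lie between -0.06 and 0.29. These means include the 6 members with an MA mean under 25.

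The promoters of these genes are shown for the sequence that interferon-activated factors are known to bind, the interferon-stimulated response element, searched here as GAAA, any 2 bases and GAAA again, on both strands. RefSeq promoters (GRCm38.p6, 250 bases before to 50 bases after the start) were found for 20 of the 26 genes. The motif stood in 9 of these 20 genes (45%), against 451 of the 12842 tested genes with a promoter (3.51%) and 3.44% of all 32851 promoters. The 9 were Stat2, Ifit1, Ifit3, Ifitm3, Rsad2, Ddx58, Ifih1, B2m and H2-T23, with log2 differences from -0.21 (Stat2) to 2.12 (Ifit1). Oasl2, Ifit2 and Psmb8 held no such letters in this window. The promoters of Ifit1, which has 2 matches, and of Oasl2, which has none in this window, are given 5′ to 3′ on the gene's strand, with matches in capitals.
Ifit1, chr19:34640639-34640938, plus strand: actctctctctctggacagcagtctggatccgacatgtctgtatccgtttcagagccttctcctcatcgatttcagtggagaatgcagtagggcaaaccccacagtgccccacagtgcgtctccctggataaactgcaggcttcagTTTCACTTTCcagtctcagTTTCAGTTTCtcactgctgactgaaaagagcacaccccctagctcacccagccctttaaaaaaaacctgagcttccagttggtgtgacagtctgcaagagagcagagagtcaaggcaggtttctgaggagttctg
Oasl2, chr5:114896684-114896983, plus strand: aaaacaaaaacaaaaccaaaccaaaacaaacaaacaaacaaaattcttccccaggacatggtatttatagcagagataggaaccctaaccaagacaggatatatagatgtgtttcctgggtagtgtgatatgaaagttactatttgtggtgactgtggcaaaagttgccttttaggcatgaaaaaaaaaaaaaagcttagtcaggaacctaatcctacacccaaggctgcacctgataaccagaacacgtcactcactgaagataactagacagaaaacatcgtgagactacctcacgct
The matches in Ifit1 begin 104 and 85 bases before the start and read in the reverse-strand form of the motif. A match is a description of the letters, and no binding was measured.

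The sort was checked against neuronal markers. Rbfox3 had values of 3796, 5130 and 8576 (lowest, median and highest) in MA and 2922, 5257 and 5778 in aged libraries, and Snap25, which encodes a SNARE protein of synaptic vesicle release, had values of 23770, 31367 and 47178 in MA and 31007, 41810 and 52160 in aged libraries. Of 12 pan-neuronal genes, all tested, 0 had a limma p under 0.05, the median log2 difference was 0.08, and for all 12 the 95% interval lay within -1 to 1. Glutamatergic markers (12 tested, median 0.04) and markers of entorhinal layers II and III (12 tested, median 0.07) likewise had no member with a p under 0.05. Reln, a marker of layer II stellate neurons, differed by -0.11 ± 0.29, Calb1, a marker of layer II pyramidal neurons, by 0.23 ± 0.27, and Wfs1 by 0.31 ± 0.45. Deep-layer markers leaned the other way, with 12 of 14 lower in aged mice and a median of -0.17 (-0.28 in females, -0.11 in males, -0.09 without A19 and -0.27 without MA5), and no member with a p under 0.05. In bulk samples such as these, fewer nuclei of a type and less RNA per nucleus cannot be told apart.

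Markers of GABAergic neurons as a class did not separate the groups. Gad1 and Gad2, which encode the enzymes that make GABA, differed by 0.10 ± 0.29 and 0.27 ± 0.25, and Slc32a1, the vesicular GABA transporter, by -0.02 ± 0.45. Of the 17 tested genes on that list 0 had a limma p under 0.05, and the median was 0.10.

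Interneuron subclass markers held 3 genes of 19 with an unadjusted limma p under 0.05 (15.8%, against 2.12% of all genes), all higher in aged mice. Vip encodes vasoactive intestinal peptide, made by interneurons that mainly inhibit other interneurons. Its values were 1086, 1461 and 2481 in MA libraries and 1760, 2422 and 3938 in aged libraries. Only MA8 among MA libraries, at 2481, exceeded the aged median, and the log2 difference was 0.76 ± 0.21, with a limma p of 0.00176 before adjustment and an exact permutation p of 0.0216. Females gave 0.71 and males 0.81, and leaving out any 1 library gave between 0.63 and 0.87.

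Npy encodes neuropeptide Y, found in several interneuron types, and Lamp5 marks neurogliaform cells. Npy had values of 469, 855 and 2295 in MA and 1026, 1748 and 3081 in aged libraries, a log2 difference of 0.82 ± 0.36. Lamp5 had values of 670, 1049 and 1462 in MA and 1085, 1406 and 2746 in aged libraries, a difference of 0.58 ± 0.23. Both overlapped between groups, and their exact permutation p was 0.0844 and 0.0606. Pvalb, the parvalbumin gene, differed by -0.36 ± 0.64 and Sst, the somatostatin gene, by 0.39 ± 0.38, so neither direction nor size was resolved.

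Over the 19 subclass markers 14 were higher and the median was 0.30, and over 24 neuropeptide genes 20 were higher and the median was 0.35. Much of this stood in 1 library. In A15 the mean over the subclass markers was 0.87 and over the neuropeptides 1.28, the highest of all 12 libraries, and without A15 the medians were 0.00 and 0.15. Vip itself kept a difference of at least 0.63 without any single library. The subclass and neuropeptide lists share members, among them Vip and Npy, so they are not separate results.

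**Figure D3:**
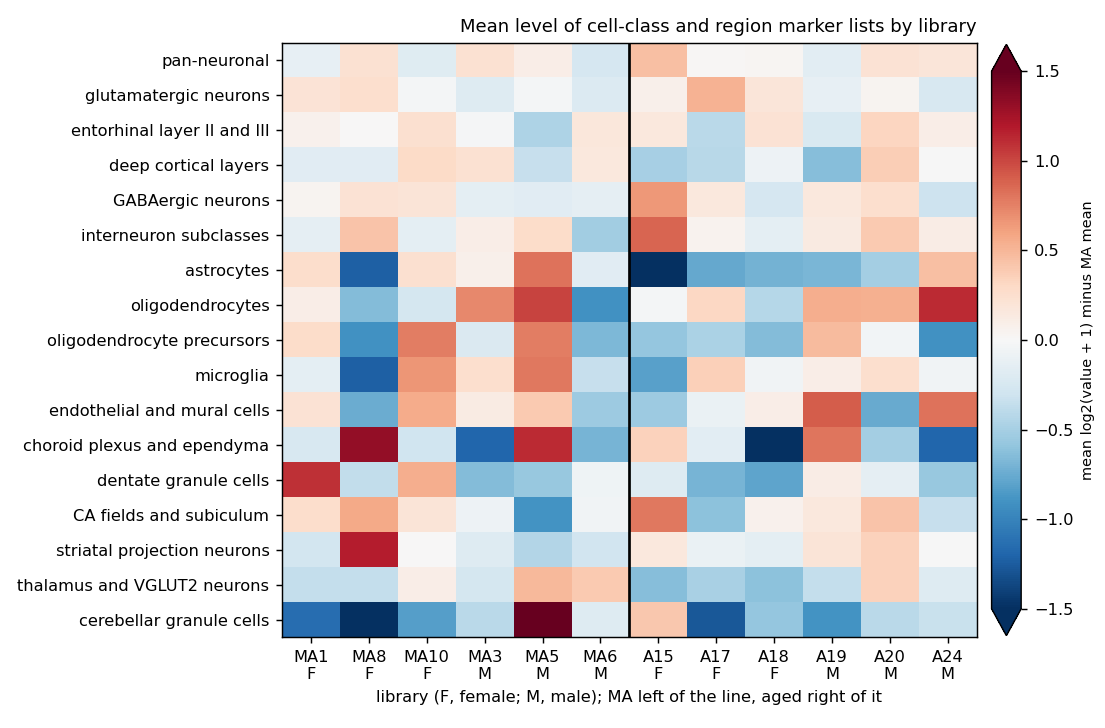
Rows are the 17 lists of cell-class and region markers, columns the 12 libraries, and the colour is the mean of log2(value + 1) over the list minus the MA mean, cut at -1.5 and 1.5. Cerebellar granule genes stand at 4.36 in MA5, astrocyte genes range from -1.66 (A15) to 0.81 (MA5), and pan-neuronal genes stay between -0.26 and 0.46.

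Receptors for inhibitory transmitters had mostly higher means in aged mice. GABA-A receptors are chloride channels built from subunits of several families, and 19 subunit genes were tested. Of these, 15 were higher and 4 lower, with a median log2 difference of 0.27 (0.13 in females and 0.59 in males). An unadjusted limma p under 0.05 was found for 2 (10.5%, against 2.12% of all genes). Gabra4, found in extrasynaptic receptors, had values of 1743, 2801 and 3630 in MA and 2907, 3462 and 4218 in aged libraries, a difference of 0.47 ± 0.21. Gabra3 had values of 1666, 2232 and 3315 in MA and 2404, 3479 and 5630 in aged libraries, a difference of 0.60 ± 0.28. The groups overlapped for both, and the difference was larger in males (0.68 and 0.91) than in females (0.26 and 0.29), although the sex difference itself had unadjusted limma p values of 0.336 and 0.29. Gabra2 differed by 0.27 ± 0.33.

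The 6 genes of GABA-B and glycine receptors all had higher means in aged mice, with a median of 0.25. The median was 0.28 in females and 0.48 in males, and 0.19 to 0.42 when 1 library was left out. The list was 1 of 56 and the only one whose library means did not overlap, between -0.19 and 0.06 in MA and between 0.10 and 0.75 in aged libraries. Glra3, a glycine receptor subunit, had values of 552, 738 and 1883 in MA and 1170, 1268 and 2490 in aged libraries. MA1 and MA5, at 1883 and 1624, lay within the aged range, and the difference was 0.75 ± 0.30 with a limma p of 0.023 before adjustment. Glra1 had the largest difference of the 6, 1.12 ± 0.69, on values of 48.0 to 572 in MA and 209 to 685 in aged libraries. The GABA-B subunits Gabbr1 and Gabbr2 differed by 0.16 and 0.22. The list is short and its library means were read after the values were known, so this is a description.

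Excitatory receptors differed little. Of 17 tested ionotropic glutamate receptor genes 14 were higher, with a median of 0.12 (-0.08 in females and 0.30 in males), and for 16 the 95% interval lay within -1 to 1. The exception, Grin2c, is an NMDA receptor subunit typical of cerebellar granule neurons and was at 2387 in MA5 against 56.5 to 200 in the other MA and 17.7 to 114 in the aged libraries. Its difference of -1.95 ± 0.82 became -1.31 when MA5 was left out.

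Voltage-gated channels set the excitability of entorhinal neurons. Of 46 voltage-gated potassium channel genes 33 were higher and 13 lower in aged mice, with a median of 0.12 (0.09 in females and 0.23 in males), and 2 had a p under 0.05 (4.35%, against 2.12% of all genes). Dpp10, an auxiliary subunit of A-type channels, had values of 14737, 25123 and 35539 in MA and 28199, 36129 and 42308 in aged libraries, a difference of 0.56 ± 0.22. Kcnv1, a modifying subunit that forms no channel of its own, differed by 0.70 ± 0.28. Among 30 other potassium channel genes the median was -0.08, although 3 were higher at a p under 0.05 (10%, against 1.15% of all genes). These were Kcnmb2 (0.71 ± 0.26), a subunit of large-conductance calcium-activated channels, Kcnk13 (0.81 ± 0.33) and Kcnt2 (0.57 ± 0.27). Sodium channel genes had 12 of 14 higher with a median of 0.19, but the median was -0.03 in females and 0.32 in males, and 0 members had a p under 0.05. HCN and TRP channels had a median of -0.08 over 24 genes, with 0 members at a p under 0.05.

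In the calcium channel list 2 of 25 genes had a limma p under 0.05 (8%, against 2.12% of all genes). Cacng3, which encodes an AMPA receptor auxiliary protein of the channel's gamma family, had values of 2447, 3077 and 5340 in MA and 3866, 4525 and 4769 in aged libraries. Aged libraries lay close together, while MA8 alone exceeded them, and the difference was 0.45 ± 0.18. Cacna2d1 differed by 0.33 ± 0.15, and 13 of the 25 genes on the list were higher.

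**Figure D4:**
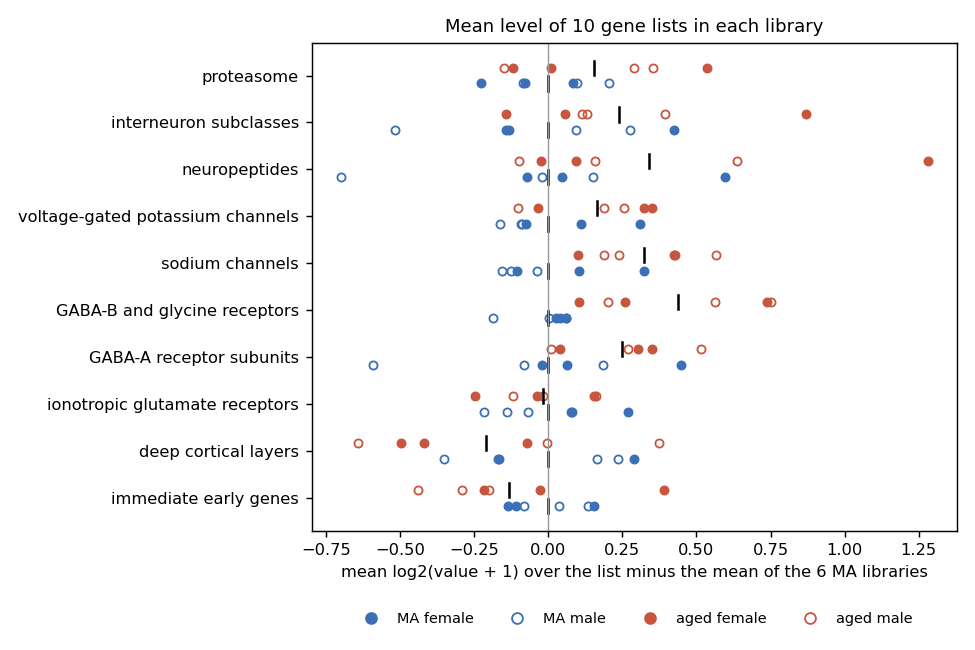
Each point is the mean of log2(value + 1) over a list's tested genes in 1 library minus the mean of the 6 MA libraries, with MA in blue, aged in red, females filled, males open and black bars at the group means. The aged and MA points separate for GABA-B and glycine receptors (0.10 to 0.75 against -0.19 to 0.06) and overlap for the other 9 lists, and A15 is the highest point of the neuropeptides at 1.28.

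Glial markers were present in the sorted nuclei and differed in direction between types. Astrocytes supply neurons with metabolites and clear transmitter and water, and of 12 astrocyte genes 10 were lower in aged mice, with a median log2 difference of -0.51 (-0.57 in females and -0.40 in males). Of the 12, 3 had a limma p under 0.05 (25%, against 2.12% of all genes). Aqp4, the water channel of astrocyte endfeet, had values of 89.2, 429 and 698 in MA and 3.43, 66.5 and 492 in aged libraries. The other 5 aged libraries lay at or under 121 while A24 was at 492, and the difference was -2.77 ± 0.79, with -2.91 in females and -2.64 in males. Its limma p was 0.00235 before adjustment and its exact permutation p 0.0433.

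The gap junction genes Gja1 and Gjb6 differed by -1.02 ± 0.40 and -0.83 ± 0.36, with -1.59 and -1.31 in females and -0.46 and -0.36 in males. Gja1 had values of 527, 1836 and 2990 in MA and 342, 838 and 1273 in aged libraries, so the groups overlapped, mainly through MA8 at 527. Slc1a3, a glutamate transporter, differed by -0.73 ± 0.39. Gfap, which encodes the filament protein of reactive astrocytes, had values of 207, 632 and 1452 in MA and 316, 886 and 2677 in aged libraries and a difference of 0.49 ± 0.57. It was 0.14 without A24, the library at 2677, and 0.16 without MA8. Prodh, which encodes proline dehydrogenase and had 1 of the smallest limma p values outside the lists, differed by -0.93 ± 0.25 on values of 347, 600 and 819 in MA and 190, 338 and 402 in aged libraries. It was named after its values were seen.

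Over the 12 astrocyte genes the library means lay between -1.22 and 0.81 in MA and between -1.66 and 0.45 in aged libraries, so the difference is within the spread of the list itself. Apoe, the main lipoprotein of astrocytes, differed by -0.86 ± 0.30 and Bcan, which encodes the matrix proteoglycan brevican, by -0.70 ± 0.32. How far the content of astrocyte nuclei entered these 2 differences was not tested.

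Oligodendrocyte genes had higher means in aged mice for all 11 tested members of 12 listed. The median was 0.34, 0 members had a p under 0.05, and the differences ran from 0.09 (Mobp) to 0.73 (Ermn), although that of Mobp lay between -0.20 and 0.34 when 1 library was left out. Library means of the list lay between -0.91 and 1.01 in MA and between -0.43 and 1.12 in aged libraries, and the median was 0.06 without MA6, which had the lowest mean. Oligodendrocyte precursor genes were lower for all 5 tested, with a median of -0.39 (-0.54 in females, 0.06 in males and -0.08 without MA10) and 0 members at a p under 0.05. Of 10 microglial genes 5 were higher and 5 lower, with a median of 0.00 and 0 members at a p under 0.05. The microglial receptors Cx3cr1, Csf1r and P2ry12 differed by -0.49 ± 0.30, -0.64 ± 0.42 and -0.58 ± 0.38.

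Genes of neighbouring regions also varied by library. Of 8 dentate granule cell genes 4 were higher and 4 lower, with a median of -0.07 (-0.86 in females and 0.30 in males), and 1 had a limma p under 0.05 (12.5%, against 2.12% of all genes). C1ql2, a marker of dentate granule cells, lay between 123 and 1445 in MA and between 3.28 and 727 in aged libraries (-2.49 ± 1.14), while Prox1 and Dsp of the same list differed by -1.02 ± 0.49 and 0.26 ± 0.79. On the list for the CA fields and subiculum 9 of 12 tested genes were higher, with a median of 0.27 that was -0.12 in females, 0.48 in males and -0.09 without MA5 and A15. Its only member with a p under 0.05 (8.33%, against 2.12%), Fn1, which encodes fibronectin, had values of 320, 1961 and 2478 in MA and 41.7, 330 and 2097 in aged libraries (-1.92 ± 0.71). Of 10 genes of thalamic and VGLUT2 neurons 4 were higher and 6 lower, with a median of -0.27, and 1 had a p under 0.05 (10%). Slc17a6, which encodes VGLUT2, differed by 0.40 ± 0.50, and Prkcd, which marks thalamic neurons, differed by -1.13 ± 0.41, with -1.68 in females and -0.57 in males. The cerebellar granule list had a median of -0.37 that turned to 0.25 without MA5, since Gabra6, Cbln3 and Fat2 were at 20442, 12248 and 9854 there and at or under 265.3 in every other library of both groups.

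Protein turnover genes were narrowly bounded. Of 46 proteasome genes 41 had higher means in aged mice, against 49.3% of all genes, the median was 0.13, and for 44 the 95% interval lay within -1 to 1. Besides Psmb8, only Psma2, a core ring subunit, had a limma p under 0.05 (4.35% of the list with both, against 2.12% of all genes), with values of 1229, 1373 and 1483 in MA and 1237, 1925 and 2572 in aged libraries and a difference of 0.40 ± 0.18. A15, A20 and A24 were the high libraries for Psma2, and A17 and A19 were within the MA range. The list's library means overlapped, and its median was 0.03 without A15.

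Ribosomal and respiratory genes had medians near 0. Cytosolic ribosomal protein genes had a median of 0.04 over 81 genes, mitochondrial ribosomal proteins 0.03 over 77 and nuclear-encoded respiratory subunits 0.07 over 77. In these 3 lists 0 genes had a p under 0.05, and the 95% interval lay within -1 to 1 for 78, 73 and 74 genes. Their medians were positive in females (0.19, 0.16 and 0.25) and negative in males (-0.11, -0.08 and -0.09). Mitochondrially encoded genes (10 tested) ran the other way, with a median of 0.12, -0.13 in females and 0.37 in males. Across the 56 lists, 32 had medians of opposite sign in females and males.

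Among stress, clearance and growth lists few genes had a limma p under 0.05, against 2.12% of all genes. The shares were 3.03% for autophagy and lysosome, 2.86% for antioxidant defence and 1.22% for chaperones. They were 1.49% for DNA methylation and histone modifiers, 6.9% for Alzheimer and tau genes and 3.45% for insulin and mTOR signalling. Tfeb, a transcription factor for lysosomal genes, had values of 57.2, 86.9 and 212 in MA and 27.3, 38.3 and 95.8 in aged libraries, a difference of -1.02 ± 0.41, while the autophagy and lysosome list as a whole had a median of 0.07. Gss, glutathione synthetase, differed by -0.51 ± 0.17 within an antioxidant list with a median of 0.06. Dnajc24, a co-chaperone, differed by -0.54 ± 0.19, Hdac5, a histone deacetylase, by -0.50 ± 0.21, Picalm, an endocytic adaptor and an Alzheimer risk gene, by 0.79 ± 0.29 and Igfbp4, a binding protein of insulin-like growth factors, by 0.58 ± 0.26. Picalm had values of 456, 985 and 1455 in MA and 1116, 1833 and 1946 in aged libraries, with 4 aged libraries above every MA library.

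Zinc finger genes named Zfp formed the largest list, and 343 were tested. Of these, 2 were higher and 7 lower at a limma p under 0.05, 2.62% in all against 2.12% of all genes. Beside Zfp72, these included Zfp800 (-0.59 ± 0.19), Zfp658 (-0.63 ± 0.20) and Zfp710 (-0.52 ± 0.18). The list's median was -0.03.

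Guidance, adhesion and matrix lists had medians between -0.08 and 0.15. In the guidance list Sema3a, a repulsive axon guidance ligand, and Efnb1, an ephrin, were higher by 0.79 ± 0.32 and 0.72 ± 0.29, and the semaphorin receptors Plxna3 and Plxnb1 were lower by -0.51 ± 0.23 and -0.63 ± 0.29. Pcdhb21, 1 of 40 clustered protocadherins tested, differed by 0.59 ± 0.21. In the list of monoamine and acetylcholine receptors, Adrb3 differed by 0.79 ± 0.36 and the nicotinic subunit Chrna3 by -1.02 ± 0.48, both on low values, between 8.35 and 139.

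Activity-dependent genes were compared because the tissue was taken after recording. Of 28 immediate early genes tested 9 were higher and 19 lower, with a median of -0.12, and the sexes differed in sign (0.13 in females and -0.35 in males). Nptx2, a secreted pentraxin that gathers AMPA receptors, was the only member with a p under 0.05 (3.57%, against 2.12% of all genes). Its values were 129, 212 and 863 in MA and 220, 521 and 689 in aged libraries, a difference of 0.91 ± 0.42. Arc, a regulator of AMPA receptor removal, differed by 0.27 ± 0.31 and Egr1, a transcription factor, by 0.20 ± 0.31. The circadian clock list had a median of -0.10 over 24 genes.

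Of the 8 genes that the study follows in its own text, Mtpn and Apoe had a limma p under 0.05 (25%, against 2.12% of all genes). Part of that list was chosen on these samples and is no independent evidence. Mtpn, which encodes myotrophin, had values of 1551, 1913 and 2253 in MA and 1854, 2909 and 3704 in aged libraries, with 5 of 6 aged libraries above every MA library. Its difference was 0.56 ± 0.15, with 0.64 in females and 0.49 in males. Hapln4, which encodes a component of the perineuronal net, differed by 0.43 ± 0.27. Adamts3, of a metalloprotease family that the study describes as degrading such nets, differed by 0.23 ± 0.35.

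**Figure D5:**
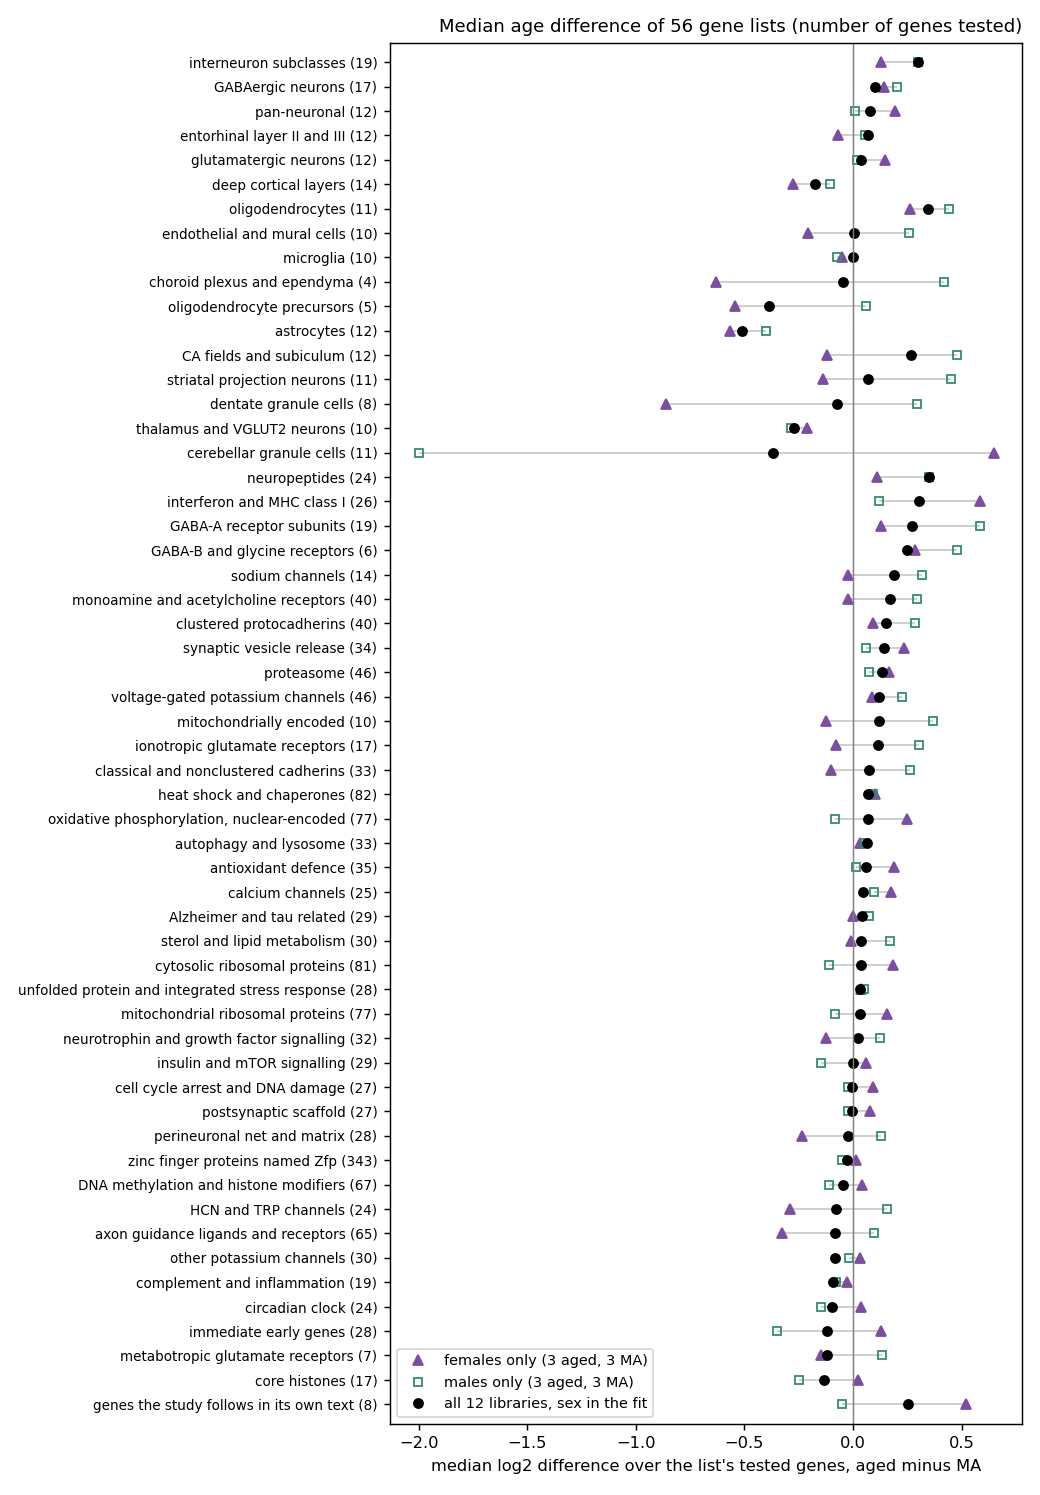
Points are the median log2 difference, aged minus MA, over the tested genes of each of 56 lists, from all 12 libraries with sex in the fit (black circles), from females (triangles) and from males (open squares). Of the 56 medians 44 lie within 0.2 of 0, astrocyte genes have the lowest median (-0.51) and neuropeptides the highest (0.35), and the cerebellar granule genes show the largest gap between the sexes.

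The difference in the age effect between males and females was tested last. It was past the adjusted threshold for 0 genes (limma, smallest adjusted p 0.9998) and under 0.05 without adjustment for 280 genes (1.56%). The 5 smallest p values belonged to Snx25, Tmem217, Gm29514, 1700063D05Rik and Tmem117. Snx25, a sorting nexin of endosomes, differed by 0.48 between aged and MA females and by -1.29 between aged and MA males, and its interaction had a limma p of 0.00092 before adjustment. In males the 3 aged values (499 to 1108) were below the 3 MA values (1657 to 2506). As the aged males came from another cohort than every other library compared here, sex and cohort cannot be told apart in this contrast.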

How the data were processed

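Nuclei positive for NeuN and Hoechst were sorted from frozen medial entorhinal cortex of 1 hemisphere per mouse, and libraries were made from total RNA with the SmartSeq method. The authors quantified reads with kallisto. Their methods name the mm39 transcriptome with introns while their processing notes name mm10, so gene symbols alone were used to join the table to other sources, and positions and promoters come from RefSeq on GRCm38.p6 (mm10). The deposited table holds 1 normalized signal value per gene and library, with library sums close to each other. The values are not whole counts and share no common step, so whole reads could not be recovered, the depth is unknown and no count test was run. All 18 columns of the table matched a sample by name. Of 27782 rows, 1072 were 0 throughout, 27 carried symbols turned into dates and 2 names occurred more than once. The counting is not stated to use strand, so antisense and overlapping genes cannot be told apart.

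Genes with a mean of at least 25 over 18 libraries were analysed as log2(value + 1), a scale on which differences of low genes are understated. The main test was limma 3.58.1 in R 4.3.3 with empirical Bayes moderation, a fit of all 3 age groups with sex as covariate, and Benjamini-Hochberg adjustment over all 17985 genes with a threshold of 0.05. The 6 young libraries entered the estimate of spread and the filter on the mean. An age by sex fit gave differences in females, in males and between them. An exact two-sided permutation test of the group labels of the 12 libraries was run on every gene (numpy 2.4.6). The limma steps were tested on simulated data before use. SE and 95% intervals are those of limma. The labels number no animals across groups and no technical repeats are given, so each library is 1 mouse. Sex and cohort were taken from the study's own records of each mouse.

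The comparison, the members and the 56 gene lists were chosen with earlier results of these data known, and lists are described by counts and medians without a test. Genes were named by rule: any called gene, the 20 smallest limma p among genes whose groups did not overlap, up to 4 members of each list with an unadjusted p under 0.05, the first 3 tested members of each cell or region list, the 8 genes the study follows and the 5 smallest interaction p values. Genes named beyond the rule, as examples of a list, for shared female and male differences or in the closing section, were picked after their values were seen. A few genes are not reported here. The alternatives were quantile normalization, size factors from the 12 libraries, pseudocounts of 5 and 0.5, no filter, a mean of at least 100, only 12 libraries in the fit, no sex term, sample weights, each sex alone, leaving out each library, and, added after seeing the data, leaving out MA5 and A15 together.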

Additional observations from a re-analysis of the deposited data

Results flagged for a closer look

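Single libraries lay far from the other 5 of their group in 22 of 340 groups of 6 examined, by Dixon's criterion, and chance alone gives about 1 in 20. MA5 accounted for several of them. Its mean over cerebellar granule cell genes was 4.36 log2 units above the MA mean, with Cbln3 at 12248, Cbln1 at 825 and Grin2c at 2387, and it was the lowest MA library for markers of entorhinal layers II and III (-0.46), for GABA-B and glycine receptors (-0.19) and for Arc (1160). MA8 was the highest MA library for striatal projection neuron markers (1.18) and for Efnb1 (353) and the lowest for Mitf (813), MA3 the lowest for metabotropic glutamate receptors (-0.67) and clustered protocadherins (-1.16), and MA1 the lowest for Oasl2 (15.9).

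Among aged libraries, A15 was the lowest for microglial markers (-0.82) and for Chrna3 (8.35) and the highest for cytosolic ribosomal proteins (0.40). A18 was the highest for Oasl2 (442) and the lowest for Rbfox3 (2922), A17 the highest for Lamp5 (2746) and the lowest for Etv1 (752), A19 the lowest for Sipa1l2 (278) and A24 the highest for Zfp658 (340).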

How the results depend on the processing

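No paired analysis was possible because the numbers of MA and aged libraries mark different mice and pair none of them. The count of genes past the adjusted threshold was 0 under every alternative run, both for the age difference and for its difference between sexes. The smallest adjusted p over those alternatives was 0.413 for age, reached without a filter on low values, and 0.938 for the sex difference. The 381 genes with an unadjusted p under 0.05 became 578 without a filter on low values, where more genes were tested, and 592 with sample weights, and the cause of the latter was not tested. Leaving out single libraries gave between 320 and 523, the highest without MA8, and leaving out MA5 and A15 gave 362. The 17 genes without overlap became 8 under quantile normalization, and the cause was not tested. With fewer libraries more genes separate by construction, namely 29 to 62 without 1 library, 62 without MA5 and A15, 949 in females only and 1173 in males only. All 66 named genes with an unadjusted p under 0.05 kept their direction under every alternative that could be run for them. They were picked for that p on these same libraries, so most alternatives could hardly reverse them. Of 1344 list medians recomputed, 19 moved by more than the SD of the MA library means, mostly in 1 sex alone. The list medians of interneuron markers (0.00), neuropeptides (0.15) and the proteasome (0.03) were small without A15, that of sodium channels was 0.09 without MA5 and A15, and that of oligodendrocyte genes was 0.17 among genes with a mean of at least 100. The interferon list had a median of 0.55 without MA5 and A15 and 0.20 at that higher minimum. Because depth is unknown, low genes such as Oasl2, Psmb8 and Ifit1 have an unknown counting error.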

Other observations

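Some of the smallest limma p values belonged to genes of none of the lists, named after their values were seen. RP24-359F24.1, a transcript known here only by its clone name, had values of 92.2, 125 and 227 (lowest, median and highest) in MA and 198, 362 and 630 in aged libraries, a log2 difference of 1.43 ± 0.33, with 1.10 in females and 1.77 in males. Its limma p of 0.000357 was the smallest of all genes and had an adjusted p of 0.9995. Only A18, at 198, lay within the MA range.

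Lgals3bp, a secreted glycoprotein that binds galectins, had values of 124, 195 and 342 in MA and 222, 338 and 578 in aged libraries, a difference of 0.86 ± 0.27. The highest aged libraries were the 3 females, at 351 to 578. Mitf, a transcription factor related to Tfeb, had values of 813, 1197 and 1448 in MA and 551, 785 and 828 in aged libraries, a difference of -0.69 ± 0.20. Slirp, a mitochondrial RNA-binding protein, differed by -0.69 ± 0.19 on values of 563, 630 and 911 in MA and 299, 401 and 577 in aged libraries. For Mitf the 3 aged males reached just into the MA range, whose lowest library, MA8, was at 813, and for Slirp A15 did, at 577.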
